A study of Mus musculus with 29 samples.

Results

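The sites bound by Pou4f3 were compared between mouse embryonic stem cell lines that expressed Pou4f3 alone (iPou4f3) or together with Gfi1 and Atoh1 (iGPA). The ChIP-seq peak lists, in which DNA precipitated with a protein is sequenced to find where it was bound, held 22433 peaks in iPou4f3 and 18751 in iGPA. Windows of 300 bp centred on the peak summits that overlapped by 1 bp or more were counted as the same site, which gave 30144 sites. Of these, 10965 (36.4%) held peaks of both lists and are called shared, 11423 (37.9%) held a peak in iPou4f3 only, and 7756 (25.7%) held a peak in iGPA only. The class of a site is therefore set by both Pou4f3 lists, and its Pou4f3 fold enrichment is given below as a description. Everything else described here (Atoh1, Gfi1 and other Pou4f3 peak lists, position relative to genes, and DNA sequence) did not enter the definition of the classes.

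Both lines derive from A2Lox cells and carried a doxycycline-inducible transgene, MYC-tagged Pou4f3 with the fluorescent reporter Venus in iPou4f3, and Gfi1, MYC-tagged Pou4f3, FLAG-tagged Atoh1 and Venus in iGPA. In both, cells were grown as embryoid bodies, in which stem cells differentiate as aggregates, induced for 48 h with 2 µg/ml doxycycline and collected at day 6. Pou4f3 was precipitated through the MYC tag in 2 libraries per line, so induced and not endogenous protein was measured. The authors merged the replicate libraries before they called peaks, so replicate spread is unknown for every list, and intervals below are for counting error only. No untreated ChIP libraries were analysed here, and the background is the input DNA of the same lines. The other lists came from the lines iAtoh1, iG+A (Gfi1 and Atoh1), iG+P (Gfi1 and Pou4f3) and iP+A (Pou4f3 and Atoh1), induced in the same way, and from Atoh1 and Gfi1 ChIP in iGPA.

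Pou4f3 is a POU-homeodomain transcription factor needed for the survival and maturation of the sensory hair cells of the inner ear, and its relatives Pou4f1 and Pou4f2 act in sensory neurons and retinal ganglion cells. POU4 proteins bind AT-rich DNA through a POU-specific domain and a homeodomain joined by a flexible linker. Atoh1 is a basic helix-loop-helix factor that binds E-boxes, CANNTG, and is required for hair cells and for several classes of neurons. Gfi1 is a zinc-finger repressor that acts beside them in hair cells, and the paper proposes that it also serves as a co-activator of Atoh1.

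Sequences of strongly enriched sites of each class are printed as examples. They were picked after their values were seen and do not stand for the shares in each class. Each run of 101 bases is the forward strand of the mouse genome (build NCBIM37, the same assembly as mm9) centred on the summit. Capitals mark the Pou4f pattern (ATAATTAAT with at most 1 mismatch, on either strand), the E-box words CAGCTG, then CAGATG, and also CATATG, and finally the word AATAAT along with the word GCATTA, which were among the most enriched 6-letter words at shared sites. These overlap in places, and the Pou4f pattern contains the homeodomain core TAATTA. First come shared sites, led by the site with the highest fold enrichment in both lists.
Shared, intergenic, 29149 bp from the start of Gm13203, with an Atoh1 peak in iGPA (chr4:148116911-148117011): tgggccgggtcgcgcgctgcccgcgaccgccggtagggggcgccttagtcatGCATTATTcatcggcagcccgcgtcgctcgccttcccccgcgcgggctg
Shared, at the start of Gm11574 (chr11:96912714-96912814): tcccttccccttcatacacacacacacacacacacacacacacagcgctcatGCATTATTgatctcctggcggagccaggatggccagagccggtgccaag
Shared, upstream of Dusp4, with an Atoh1 peak in iGPA (chr8:35866620-35866720): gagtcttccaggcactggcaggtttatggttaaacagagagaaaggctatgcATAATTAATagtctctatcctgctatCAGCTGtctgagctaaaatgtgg
These sites had a Pou4f3 fold enrichment of 72.4 in iPou4f3 and 107 in iGPA, of 49.2 and 97.5, and of 33.4 and 38.4. In the first and second, the overlapping words GCATTA and ATTATT lay beside the summit, and near Dusp4 the unmismatched Pou4f pattern lay there with a CAGCTG E-box further on. Dusp4 encodes a phosphatase of the MAP kinase pathway. The next sites had a peak in iPou4f3 only.
iPou4f3 only, 66 bp upstream of the start of Ell, with an Atoh1 peak in iGPA (chr8:73063458-73063558): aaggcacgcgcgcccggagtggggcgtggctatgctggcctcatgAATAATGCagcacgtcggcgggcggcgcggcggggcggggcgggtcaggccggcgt
iPou4f3 only, 185 bp upstream of the start of Ipo13 (chr4:117587739-117587839): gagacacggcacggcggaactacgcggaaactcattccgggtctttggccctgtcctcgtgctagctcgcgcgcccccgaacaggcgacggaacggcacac
iPou4f3 only, 108 bp upstream of the start of Ufm1 (chr3:53667810-53667910): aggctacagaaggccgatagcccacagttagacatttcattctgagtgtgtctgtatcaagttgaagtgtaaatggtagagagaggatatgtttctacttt
iPou4f3 only, 62382 bp upstream of the start of Trpm3 (chr19:22151177-22151277): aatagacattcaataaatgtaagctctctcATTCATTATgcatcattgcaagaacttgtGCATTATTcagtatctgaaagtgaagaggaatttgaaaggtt
Their fold enrichment in iPou4f3 was 34.5, 11.4, 11.2 and 7.13. The first 3 of them were the strongest of the class outside chromosomes 18 and Y and tandem repeats, and each lay within 1 kb of the start of a gene with a general cell function, namely Ell (transcription elongation), Ipo13 (nuclear import) and Ufm1 (a ubiquitin-like modifier). The Trpm3 site, among the strongest that held the Pou4f pattern, was distal. The last set had a peak in iGPA only.
iGPA only, 445 bp upstream of the start of Ell (chr8:73063079-73063179): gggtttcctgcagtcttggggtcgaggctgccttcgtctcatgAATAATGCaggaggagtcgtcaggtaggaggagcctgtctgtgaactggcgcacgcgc
iGPA only, intergenic, 24648 bp from the start of Kcnk16, with an Atoh1 peak in iGPA (chr14:21063686-21063786): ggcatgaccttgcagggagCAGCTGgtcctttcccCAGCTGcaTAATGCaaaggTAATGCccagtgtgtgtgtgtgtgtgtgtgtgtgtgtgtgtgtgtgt
iGPA only, intron of Il17ra, with an Atoh1 peak in iGPA (chr6:120422259-120422359): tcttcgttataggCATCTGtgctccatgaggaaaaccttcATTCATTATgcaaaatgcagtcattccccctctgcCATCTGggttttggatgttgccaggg
iGPA only, intron of Crim1, with an Atoh1 peak in iGPA (chr17:78637456-78637556): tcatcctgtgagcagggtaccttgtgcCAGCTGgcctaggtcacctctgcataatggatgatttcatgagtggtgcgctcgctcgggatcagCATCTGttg
Their fold enrichment in iGPA was 38.0, 34.1, 14.0 and 13.5. Sites with an Atoh1 peak are more frequent among these examples than in the class, where 26.1% had one. The strongest site of the class left unprinted by this choice, in an intron of Tmprss7 (18.5), had neither an iGPA Atoh1 peak nor an E-box. The Kcnk16 sequence held 2 CAGCTG E-boxes and the word TAATGC, which on the other strand reads as GCATTA, the Il17ra sequence a Pou4f pattern flanked by 2 E-boxes, and the Crim1 sequence 2 E-boxes with no Pou4f pattern. The strongest site of each class that was not shared lay upstream of Ell, at chr8:73063358-73063657 in iPou4f3 and at chr8:73062979-73063278 in iGPA, and both held AATAAT overlapping TAATGC, so that these separate sites are neighbours upstream of 1 gene.

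Sites this close were rare. Of the iPou4f3-only sites, 283 (2.48%) had an iGPA Pou4f3 summit within 500 bp, and of the iGPA-only sites 263 (3.39%) had an iPou4f3 summit within 500 bp. The median distance to the nearest summit of the other list was 27.5 kb for iPou4f3-only and 27.0 kb for iGPA-only sites. In shared sites the summits of both lists lay a median of 19 bp apart, and within 50 bp in 81.2%.

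Strong sites were mostly shared and weak sites mostly not. Shared sites were 49.0% of those in iPou4f3 (95% interval 48.3 to 49.6) and 58.6% of those in iGPA (57.9 to 59.3). Each list was split into 5 groups of about equal size by fold enrichment. In the weakest group 15.5% of iPou4f3 and 33.4% of iGPA sites were shared, and in the strongest group 93.0% and 91.4%. The median fold enrichment in iPou4f3 was 4.13 at shared and 2.97 at iPou4f3-only sites, and in iGPA it was 4.95 at shared and 3.64 at iGPA-only sites. Inverting the authors' values gave a usual background of 7.41 fragments in the iPou4f3 list and 5.87 in the iGPA list, at which the lowest callable fold was 2.38 and 2.62. Each limit applies to the fold within its own list, and a site need not have the same fold in both. The shared site near Slc17a8 had a fold of 2.61 in iPou4f3 and 4.51 in iGPA. With an equal number of peaks, 55.4% of the sites of each list were shared, and where every list was restricted to a −log10 p of 10 or more, 64.8% of iPou4f3 and 58.5% of iGPA sites.

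**Figure D1:**
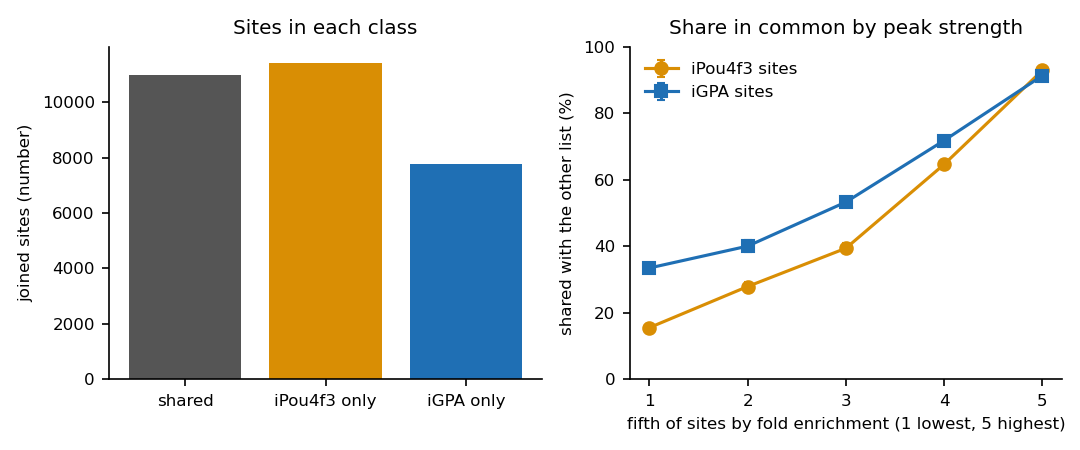
Left, number of joined Pou4f3 sites in each class (bars). Right, percentage of the sites of each list that were shared with the other, in 5 groups by fold enrichment within the list, with exact 95% intervals smaller than most symbols. The shared percentage rose from 15.5% to 93.0% for iPou4f3 sites and from 33.4% to 91.4% for iGPA sites.

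The class shares varied by chromosome. Shared sites made up 28.9% of all sites on chromosome 14 and 40.7% on chromosome 9, the lowest and highest of the autosomes. Among autosomes the share of iGPA-only sites was between 22.7% (chromosome 11) and 28.8% (chromosome 12), and that of iPou4f3-only sites between 33.5% (chromosome 18) and 45.7% (chromosome 14).

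The class bound in iPou4f3 only lay at promoters far more often than the others. A summit within 1 kb of an annotated transcription start was found at 43.9% of iPou4f3-only sites (43.0 to 44.8, 5013 sites), at 14.7% of shared sites (14.0 to 15.4) and at 11.0% of iGPA-only sites (10.3 to 11.7). The difference between iGPA-only and iPou4f3-only sites was −32.9 percentage points (−34.0 to −31.7), with the same sign on 20 of 20 chromosomes. It was also present within bands of fold enrichment, although the fold scales of the lists are not directly comparable. Among sites with a fold enrichment of 3 to 4 in their own list the promoter share was 11.8% in iGPA only and 45.0% in iPou4f3 only, and at 4 to 6 it was 5.10% and 46.1%. Over whole lists, 29.7% of iPou4f3 peaks, 18.1% of iG+P, 20.9% of iP+A and 13.2% of iGPA Pou4f3 peaks lay at promoters.

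Away from promoters the classes differed less. Of distal sites, 46.6% of iGPA-only, 46.8% of shared and 42.6% of iPou4f3-only sites were intronic, and 50.6%, 51.0% and 53.9% were intergenic. Coding exons held 1.47% of distal iPou4f3-only, 0.78% of distal iGPA-only and 0.50% of distal shared sites. The median distance to the nearest start was 2459 bp for iPou4f3-only, 16562 bp for shared and 18825 bp for iGPA-only sites. Base composition went the same way. The median GC content of the 250 bp around the summit was 48.0% at iPou4f3-only, 42.4% at shared and 42.8% at iGPA-only sites, and 40.5%, 13.03% and 8.83% of them had a CpG content, relative to that expected from their C and G content, of at least 0.6. Among promoter sites, this CpG-rich share was 80.3% in iPou4f3 only, 64.2% in shared and 53.7% in iGPA only. Away from promoters the median GC content was 40.4%, 41.6% and 42.0%.

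**Figure D2:**
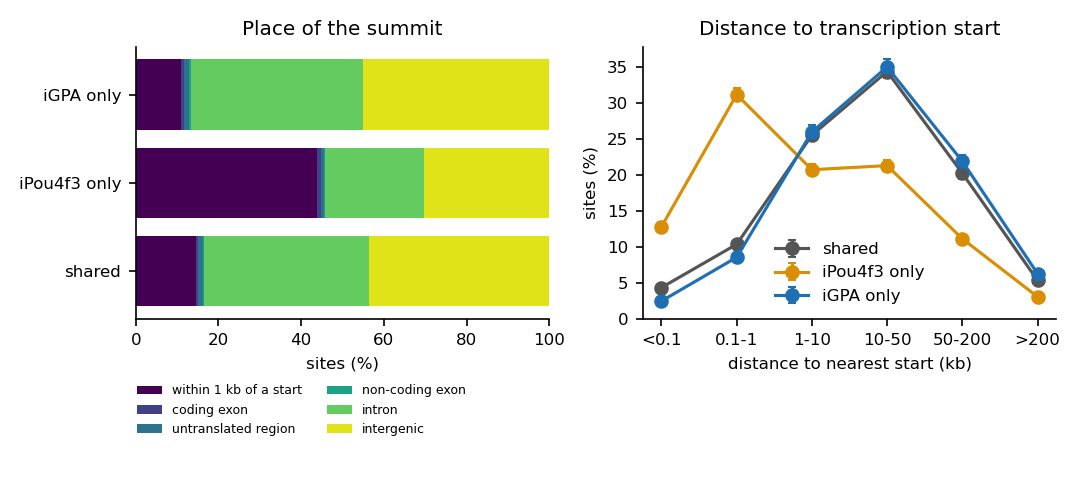
Left, percentage of sites of each class by the place of the summit. Right, percentage of sites by distance to the nearest annotated transcription start (kb), with exact 95% intervals. The iPou4f3-only sites peak at 0.1 to 1 kb (31.1%), the shared and iGPA-only sites at 10 to 50 kb (34.3% and 34.9%).

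Over all sites, Atoh1 peaks were more frequent at iGPA-only sites than in the other classes, with an exception at promoters given below. An Atoh1 peak in iGPA overlapped 26.1% of iGPA-only sites (25.2 to 27.1, 2028 sites), 17.5% of iPou4f3-only sites (16.8 to 18.2) and 17.9% of shared sites (17.2 to 18.6), against 19.9% of all sites. The difference between iGPA-only and iPou4f3-only sites was 8.61 points (7.41 to 9.82) with the same sign on 20 of 20 chromosomes. Because iPou4f3-only sites lay at promoters so often, the comparison was repeated more than 1 kb from any start, where 25.1% of iGPA-only and 10.2% of iPou4f3-only sites had an Atoh1 peak, a difference of 14.9 points (13.6 to 16.2), and shared sites had 14.8%. At promoters the shares were 34.4% of iGPA-only, 26.9% of iPou4f3-only and 35.8% of shared sites, and iGPA-only and shared sites were not distinguishable (−1.41 points, −5.32 to 2.57). With promoter and distal sites together, the difference between iGPA-only and iPou4f3-only sites was 2.75 points at a fold enrichment of 3 to 4. At 4 to 6 it was 14.9 points. With windows of 1000 bp the difference over all sites fell to 3.35 points. The iGPA Atoh1 and Pou4f3 lists come from the same line and were called against the same input libraries. With the Atoh1 list of iP+A, made from other libraries, the difference was 3.25 points (2.15 to 4.37).

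Among iGPA-only sites, those with the highest fold enrichment most often had an Atoh1 peak. The fold and the Atoh1 peaks share input libraries here too, and the effect of this was not tested. An Atoh1 peak was present at 24.5% of iGPA-only sites with a fold enrichment under 3, at 19.7% of those between 3 and 4, at 32.3% between 4 and 6 and at 65.6% of the 413 sites above 6. At shared sites the share was 30.7% below a fold of 3 in iGPA, above that of iGPA-only sites, and 25.7% above 6. At iPou4f3-only sites it was between 16.9% and 17.97% below a fold of 6 and 22.7% above it (15 of 66 sites). In the iGPA-only class the summits of both factors lay a median of 31 bp apart, within 50 bp in 67.0% of sites. They lay 41 bp apart at shared sites and 100 bp apart at iPou4f3-only sites.

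At shared sites, Pou4f3 was relatively more enriched in iGPA where Atoh1 was also present and distal. The iGPA Pou4f3 fold and the iGPA Atoh1 peaks rest on the same input libraries, and the effect of this on the ratio was not tested. The median log2 ratio of the fold enrichment in iGPA to that in iPou4f3 was 0.25 over all shared sites (quartiles −0.02 and 0.54), which depends on the fold scale of each list. It was 0.58 (quartiles 0.20 and 0.97) at 1385 distal sites with an iGPA Atoh1 peak, 0.24 at 7970 distal sites without it, 0.09 at 577 promoter sites with it and 0.08 at 1033 promoter sites without it. Enrichment over 2 times higher in iGPA was found at 23.2% (21.0 to 25.5) of the distal Atoh1 sites and at 3.21% (2.84 to 3.62) of the distal sites without Atoh1. A value more than 2 times lower in iGPA was found at 55 shared sites (0.502%). Across shared sites, the fold enrichments had a Pearson correlation of 0.77 on the log2 scale (Spearman 0.67, n = 10965 sites that share libraries and are not independent).

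The Atoh1 lists of different lines separated the classes. Atoh1 peaks of lines without Pou4f3 lay at iPou4f3-only sites most often, at 11.5% in iAtoh1 and 15.1% in iG+A, against 7.22% and 8.28% of iGPA-only and 4.13% and 5.71% of shared sites. In lines with Pou4f3 the iGPA-only sites were the highest, at 19.4% in iP+A and 26.1% in iGPA, against 16.1% and 17.5% of iPou4f3-only sites. The Atoh1 lists differ in length, so the same overlap was also expressed as a share of each Atoh1 list. Shared sites took 3.04% of iAtoh1 and 3.19% of iG+A Atoh1 peaks but 8.50% of iP+A and 7.67% of iGPA peaks. The iGPA-only sites took 3.69% and 3.18%, then 8.03% and 7.83%. The iPou4f3-only sites took 8.67%, 8.66%, 9.91% and 7.80% in the same order. The share at iPou4f3-only sites thus stayed between 7.80% and 9.91% over the 4 lists, and that at shared and iGPA-only sites was over 2 times higher in both lists with Pou4f3 than in both without. At promoters the iGPA-only and iPou4f3-only classes were not distinguishable in the lists without Pou4f3, with differences of 0.73 points (−1.54 to 3.29) in iAtoh1 and 0.87 points (−2.02 to 3.97) in iG+A, and away from promoters these were −4.60 points (−5.58 to −3.64) and −3.73 points (−4.69 to −2.79).

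**Figure D3:**
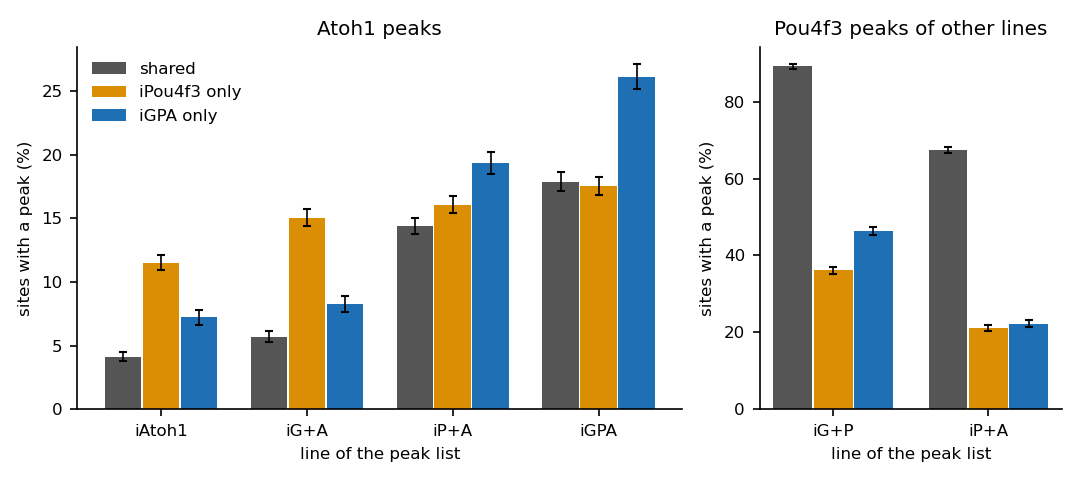
Percentage of sites of each class that overlap an Atoh1 peak (left) or a Pou4f3 peak of another line (right), by the line of that list, with exact 95% intervals. In the Atoh1 lists of iAtoh1 and iG+A the iPou4f3-only bar is the highest (11.5% and 15.1%), and in those of iP+A and iGPA the iGPA-only bar is (19.4% and 26.1%).

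Among sites with an iGPA Atoh1 peak, a counterpart in lines without Pou4f3 was missing more often at iGPA-only and shared than at iPou4f3-only sites. Of the 2028 iGPA-only sites with an iGPA Atoh1 peak, 1450 (71.5%) had no Atoh1 peak in iAtoh1 or in iG+A, and 61.8% had one in iP+A. The numbers for shared sites were 1393 of 1962 (71.0%) and 63.5%. At iPou4f3-only sites with an iGPA Atoh1 peak, 793 of 2003 (39.6%) had none in iAtoh1 or iG+A. The same share over all iGPA Atoh1 peaks was not counted. The paper reports most of those peaks as absent from iAtoh1, a measure that leaves out iG+A, so absence from most sites is not particular to a class. By iAtoh1 alone, an Atoh1 peak was present at 20.1% of iGPA-only, 19.1% of shared and 38.4% of iPou4f3-only sites with an iGPA Atoh1 peak. Promoters differed less, as 51.7% of iGPA-only, 50.3% of shared and 43.1% of iPou4f3-only promoter sites with an iGPA Atoh1 peak had none in iAtoh1 or iG+A, against 74.9%, 79.6% and 32.3% of the distal sites.

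Shared sites held a Pou4f3 peak of the remaining lines more often than the other classes did. Of the peaks in those lists, 30.4% in iG+P and 43.5% in iP+A lay at shared sites. An iG+P Pou4f3 peak overlapped 89.2% of shared, 46.3% of iGPA-only and 36.1% of iPou4f3-only sites, and an iP+A Pou4f3 peak 67.5%, 22.2% and 21.1%. The difference between iGPA only and iPou4f3 only was 10.2 points (8.78 to 11.6) for iG+P and 1.10 points (−0.09 to 2.29) for iP+A, the latter not distinguishable from 0. Within bands of each list's own fold enrichment, whose scales differ, the iG+P difference was 0.07 points (−2.00 to 2.13) for a fold enrichment of 3 to 4 and −4.49 points (−8.38 to −0.53) for 4 to 6, and the iP+A difference was −6.76 and −17.6 points. A peak in neither iG+P nor iP+A was a property of 54.5% of iPou4f3-only sites, 44.4% of iGPA-only sites and 6.68% of shared sites. Where Atoh1 was also bound in iGPA, 37.0% of iGPA-only sites had an iP+A Pou4f3 peak and 32.8% an iG+P peak. Without Atoh1, the shares were 16.99% and 51.1%.

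Gfi1 peaks in iGPA were few in every class, at 3.47% of iGPA-only, 2.78% of iPou4f3-only and 4.14% of shared sites. The difference between iGPA-only and iPou4f3-only sites was 0.68 points (0.19 to 1.202). The Gfi1 list held 3012 peaks from 1 library. Its share was 9.86% at iGPA-only sites with an Atoh1 peak and 1.205% at those without one.

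The Pou4f pattern was most frequent at shared sites and least at iPou4f3-only sites. The 250 bp at the summit and, as a background, equally long windows 1000 bp to each side were scanned on both strands. Among shared sites 58.7% (57.8 to 59.6) held the pattern, against 48.9% (47.8 to 50.05) in the iGPA-only and 26.1% (25.2 to 26.9) in the iPou4f3-only class, and flanks held it in 10.5%, 11.1% and 9.61%. The difference between iGPA only and iPou4f3 only was 22.9 points (21.5 to 24.2), on 20 of 20 chromosomes. Away from promoters it was 9.81 points (8.12 to 11.5), from shares of 52.7% and 42.8%. At promoters the pattern was found at 18.9% of iGPA-only and 4.59% of iPou4f3-only sites. The unmismatched letters ATAATTAAT were present at 11.8% of shared, 7.41% of iGPA-only and 4.48% of iPou4f3-only sites, and in 0.42% to 0.55% of flanks. The related word ATGAATAAT, added after the sequences above were seen, was present at 15.9%, 6.42% and 3.36%, and in 0.32% to 0.52% of flanks. The pattern was centred on the summit, at a median distance of 13.5 bp in shared, 21.5 bp in iGPA-only and 23.5 bp in iPou4f3-only sites that held it.

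E-boxes were enriched at iGPA-only sites. The E-box pattern (any of the 3 E-box words above) was held by 43.4% (42.3 to 44.5) of the class, against 31.6% of flanking windows. Shared sites held it in 31.6%, with 31.7% in flanks, and iPou4f3-only sites in 23.9%, with 29.0% in flanks. The difference between iGPA only and iPou4f3 only was 19.5 points (18.1 to 20.8), on 20 of 20 chromosomes, and 17.7 points (16.1 to 19.3) away from promoters. CAGATG differed most (25.5% against 11.7%), followed by CAGCTG (17.1% against 10.1%) and CATATG (8.24% against 3.89%). The E-box CACGTG, which is bound by other helix-loop-helix factors, went the other way (3.25% against 5.77%). These shares of single words include promoters. CACGTG holds a CpG, and 40.5% of iPou4f3-only against 8.83% of iGPA-only sites were CpG-rich as defined above.

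**Figure D4:**
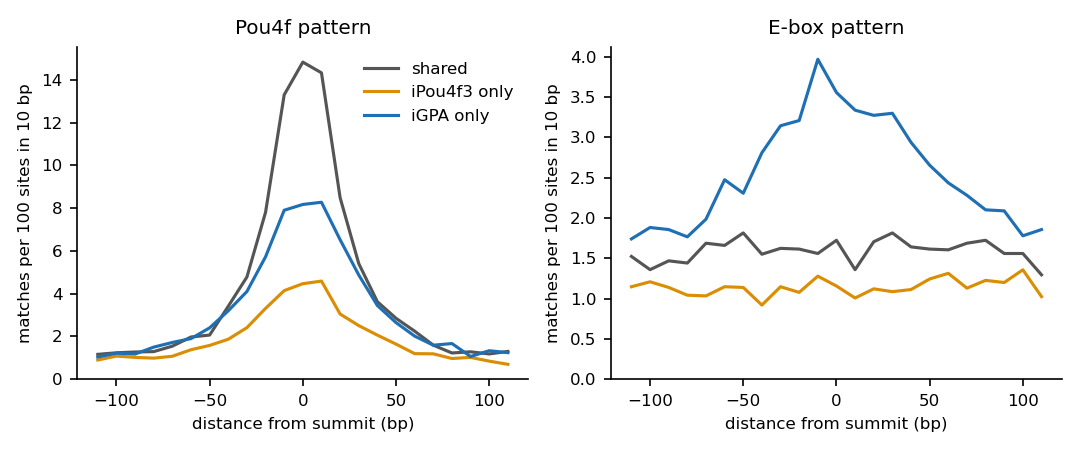
Matches of the Pou4f pattern (left) and of the E-box pattern (right) per 100 sites in bins of 10 bp, by distance from the Pou4f3 summit (bp). The Pou4f pattern is centred on the summit in each class and highest at shared sites, and the E-box pattern is centred in the iGPA-only class and nearly level in the others.

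Within the iGPA-only class, sequence differed with the presence of Atoh1. With an iGPA Atoh1 peak, 73.6% of iGPA-only sites had an E-box and 28.6% the Pou4f pattern. Without one, 32.7% had an E-box and 56.1% the Pou4f pattern. In distal sites the E-box share was 78.3% at iGPA-only, 61.0% at shared and 35.5% at iPou4f3-only sites with an Atoh1 peak, and 33.8%, 28.3% and 26.3% without it. The Pou4f pattern was present at 32.1%, 53.2% and 15.5% of distal sites with an Atoh1 peak and at 59.5%, 66.2% and 46.0% without it. Where an iGPA-only site had an Atoh1 peak and E-boxes, these lay a median of 24 bp from the Pou4f3 summit, against 52 bp where Atoh1 was not called. In the 479 iGPA-only sites with an Atoh1 peak that held both patterns, their centres lay a median of 32.5 bp apart and 45.9% (41.4 to 50.5) lay within 30 bp. In the 1068 such sites without an Atoh1 peak the median was 56.5 bp and 26.03% (23.4 to 28.8) lay within 30 bp.

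Distal iGPA-only sites whose Atoh1 peak was absent from iAtoh1 and iG+A carried the Pou4f pattern more often than those whose Atoh1 peak was already present there. It was found at 37.7% (35.0 to 40.4) of the 1298 former and 15.6% (12.3 to 19.3) of the 436 latter sites. E-boxes were present at 84.2% (82.1 to 86.1) and 60.8% (56.0 to 65.4). In shared distal sites the Pou4f pattern was found at 58.7% of 1103 and 31.6% of 282 sites.

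**Figure D5:**
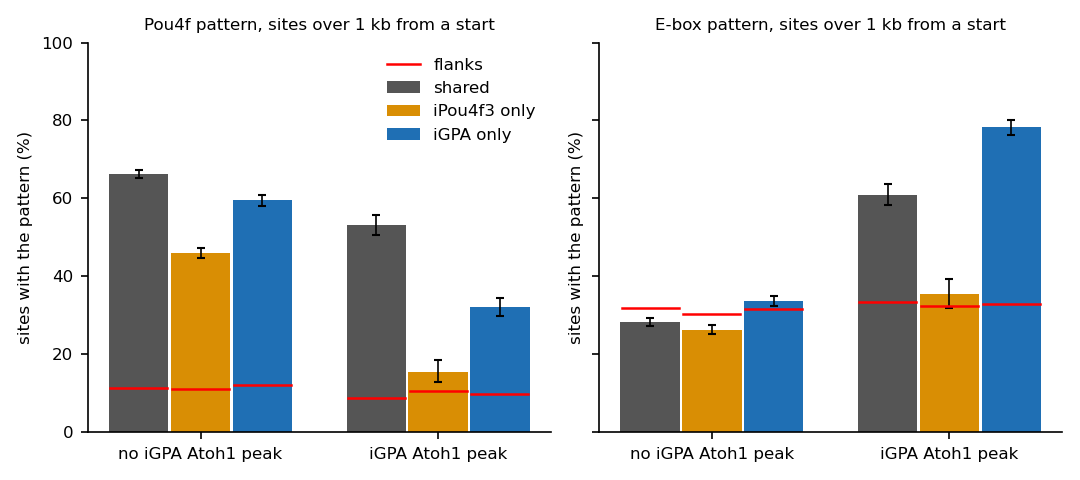
Percentage of sites more than 1 kb from a start that hold the Pou4f pattern (left) or the E-box pattern (right), by class and by the presence of an iGPA Atoh1 peak, with exact 95% intervals. Red lines give the share in flanks. With an Atoh1 peak, 78.3% of iGPA-only and 35.5% of iPou4f3-only sites hold an E-box.

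All 6-letter words were also counted without a chosen pattern. Words that were present in at least 2% of flanks and at least 1.5 times as frequent at sites numbered 149 of 1800 (8.28%) at shared, 350 of 1933 (18.1%) at iPou4f3-only and 93 of 1770 (5.25%) at iGPA-only sites. The flank limit was applied within each class, and the rankings below hold only words that passed it there. At shared sites the 8 highest ratios belonged to ATTAAT (3.69), AATAAT (3.65), GCATTA (3.61), AATTAT (3.30), TAATTA (3.24), ATAATG (2.88), ATGCAT (2.73) and GCGGCC (2.67). At iGPA-only sites 6 of these words were among the 8 highest again, namely ATTAAT (3.14), AATTAT (2.77), AATAAT (2.69), TAATTA (2.56), GCGGCC (2.45) and GCATTA (2.26), together with CGGCCC (2.21) and GCCGCC (2.11). At iPou4f3-only sites the 8 highest were CGCGGC (6.63), CGGCCG (6.40), CCGCGG (6.19), CGCCGC (6.05), CCGCGC (5.96), CCCGCG (5.77), CGCGCC (5.73) and CGGCGC (5.69). These words were also enriched in the other classes, with ratios of 3.18 to 3.87 at shared and 2.84 to 3.42 at iGPA-only sites. They are missing from those rankings because of the flank limit. AATAAT was at 50.6% of iGPA-only and 28.0% of iPou4f3-only sites, and GCATTA at 17.3% and 10.6% of them against 29.2% of shared sites. GGGCGG, the core bound by Sp and Klf factors, was at 26.5% of iPou4f3-only, 9.49% of shared and 7.17% of iGPA-only sites. The word shares in this paragraph pool promoter and distal sites, and 43.9% of iPou4f3-only against 11.0% of iGPA-only sites lay at promoters. Words for Sox factors (ACAAAG or ACAATG) and GATA factors (AGATAA or TGATAA) were below their flank shares in each class.

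Genes were assigned by the nearest transcription start. Of 22380 protein-coding genes, 5211 (23.3%) had a shared site, 6320 (28.2%) an iPou4f3-only site and 3753 (16.8%) an iGPA-only site. Of these 22380 genes, 9160 had an iPou4f3 site and 7144 an iGPA site. Both lists had a site at 5961 genes, 65.1% of the iPou4f3 genes and 83.4% of the iGPA genes. Assigning many sites to each gene raises such overlap by construction, so it is not comparable with that of sites. Of the genes with an iGPA-only site, 68.5% also had a shared or an iPou4f3-only site. Over all 22380 genes, 9160 had a site of either of these classes.

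Several genes gathered many shared sites. Park2, a ubiquitin ligase gene, had 11 shared sites, each with the Pou4f pattern. Auts2 had 11, Odz3 (a teneurin) 9, Rbms3, Smyd3, Satb1 and Robo1 had 8 each, and Ntm and Gm8730 had 7. The highest fold enrichment among these genes, in either list, was at Odz3 (45.6). Rbms3 had no site in either other class.

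In the iGPA-only class, Ptprg (a receptor phosphatase), Gfra2 (a receptor for GDNF-family ligands) and the axon guidance receptor gene Robo1 had 9 sites each, Robo2 8, and Raet1d and Pik3c3 7 each. At Ptprg 6 of the 9 sites and at Gfra2 and Robo1 5 of 9 held the Pou4f pattern, and 1 site of each had an Atoh1 peak. Gfra2 had no iPou4f3-only site and 3 shared sites. The genes Prl2c3 (22 sites), Gm10479 (11), Prl2c2 (10) and Gm3667 (10), which belong to clusters of near-identical copies where reads can be misplaced, also led the list, and their sites are uncertain. In the iPou4f3-only class 9 of the 10 genes with the most sites were such Prl2c or Gm genes, led by Prl2c3 with 33 sites, and the other was the pseudogene Tmem181b-ps. Below them, chosen after the values were seen, Usp14 had 8 and Pde4d 7 iPou4f3-only sites.

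Among 44 hair cell genes, 19 (43.2%) had a shared, 17 (38.6%) an iPou4f3-only and 19 (43.2%) an iGPA-only site, against 23.3%, 28.2% and 16.8% of protein-coding genes. The interval of the iPou4f3-only share (24.4 to 54.5) included that over protein-coding genes. Large intergenic neighbourhoods collect more sites under nearest-start assignment, and this was not corrected for. The hair cell genes with an iGPA-only site included Atoh1, Barhl1, Calb2, Cdh23, Ctbp2, Grxcr1, Ikzf2, Loxhd1, Myo15, Myo3a, Ocm, Pcdh15, Pou4f3, Rasd2, Tmc1, Ush1c and Whrn. Grxcr1, which shapes stereocilia, had an iGPA-only site 121 bp upstream of its start with a fold enrichment of 3.35 and the Pou4f pattern. Tmc1, a component of the mechanotransduction channel, had an iGPA-only intronic site at chr19:20872239-20872538 with a fold of 5.10, an Atoh1 peak, the Pou4f pattern and an E-box. Myo15 and Ush1c, which encode a stereocilia motor and a tip-link scaffold, had a site in iGPA only (3.64 and 3.35). Genes of the same kind were also bound by Pou4f3 alone. Myo6, the hair cell myosin VI gene, had 4 shared sites up to a fold of 8.80 in iPou4f3 and 11.1 in iGPA, and Ush1g had a shared site of 12.6 and 11.8.

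At Barhl1, a homeobox gene of hair cells, the intronic shared site at chr2:28766015-28766326 had a fold of 5.23 in iPou4f3 and 11.7 in iGPA, and the iGPA-only site beside it one of 3.64. The site 1297 bp upstream of Pou4f3 itself was shared, with a fold of 18.2 in both lines and an Atoh1 peak in iGPA. The transgenes carry copies of Atoh1, Gfi1 and Pou4f3, and 5 sites overlapped exons of these genes, so reads from the transgene and the gene cannot be told apart there. Of these, the iGPA-only site at the Atoh1 exon (3.32) lay in a gene that the iPou4f3 transgene lacks, and the only iGPA-only site of Pou4f3 was one of them.

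Of 21 Pou4f and LIM-domain genes, 13 (61.9%) had a shared, 9 (42.9%) an iPou4f3-only and 10 (47.6%) an iGPA-only site, against 23.3%, 28.2% and 16.8% of protein-coding genes. The interval of the iPou4f3-only share (21.8 to 66.0) included that over protein-coding genes. Lhx9, a LIM-homeodomain gene, had 4 sites, each in iGPA only, with folds of 3.06 to 3.93 and no Atoh1 peak, and 3 of them held the Pou4f pattern. Lmo3 had 2 iGPA-only sites and no other. Isl1, Isl2, Ldb2, Lhx4, Lmo1, Lmo4, Pou4f1 and Pou4f3 were the other genes with an iGPA-only site, which at Pou4f3 was solely the site in its coding exon. Pou4f1 had 4 shared, 4 iGPA-only and 2 iPou4f3-only sites, the strongest shared site reaching 6.54 in iPou4f3 and 9.17 in iGPA. Lmx1b had 5 shared sites, the strongest at 17.6 and 33.1.

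Of 45 neuronal genes 19 (42.2%) had a shared, 14 (31.1%) an iPou4f3-only and 13 (28.9%) an iGPA-only site, against 23.3%, 28.2% and 16.8% of protein-coding genes. The intervals of the iPou4f3-only (18.2 to 46.6) and iGPA-only shares (16.4 to 44.3) included those over protein-coding genes. Elavl4, an RNA-binding protein gene of neurons, had 7 shared sites, 4 with an Atoh1 peak, the strongest at 6.42 in iPou4f3 and 18.6 in iGPA. Its iGPA-only site at chr4:109825152-109825451 had a fold of 7.28 and an Atoh1 peak. Myt1, a zinc-finger gene of neuronal differentiation, had an intronic iGPA-only site of 9.76 with an Atoh1 peak and an E-box, 732 bp from its start. At the proneural gene Neurog1 and at Nhlh1, shared sites near the start had folds of 17.1 and 13.9 in iPou4f3 and of 20.8 and 34.8 in iGPA. The remaining neuronal genes with an iGPA-only site were Ebf1, Ebf3, Elavl3, Gap43, Myt1l, Neurod4, Neurog1, Nhlh1, Rbfox3, St18 and Syt1.

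Of 31 Notch pathway genes, 15 (48.4%) had a shared site and 16 (51.6%) an iPou4f3-only site, 13 of them (41.9% of the list) at a promoter, against 18.3% of protein-coding genes with an iPou4f3-only promoter site. The shares over protein-coding genes were 23.3% and 28.2%. An iGPA-only site was found at 8 (25.8%, 11.9 to 44.6, against 16.8% of protein-coding genes), namely Dner, Hes1, Hes6, Hey1, Jag2, Maml3, Mib1 and Notch4. The Notch target Hes1 had 3 iPou4f3-only sites (2.68 to 2.84) and 1 iGPA-only site at its start (2.50), each with an iGPA Atoh1 peak, and none held the Pou4f pattern. Hey1 had a distal iGPA-only site of 7.14. The ligand gene Jag1 had 3 shared and 4 iPou4f3-only sites. Of 46 axon guidance genes, 28 (60.9%) had a shared, 31 (67.4%) an iPou4f3-only and 27 (58.7%) an iGPA-only site, each above the share over protein-coding genes. The size of gene neighbourhoods was not corrected for here either. At promoters the shares were 8.70%, 32.6% and 4.35%, against 6.16%, 18.3% and 3.19% of protein-coding genes. Of 41 germ layer genes, 13 (31.7%) had a shared, 15 (36.6%) an iPou4f3-only and 9 (22.0%) an iGPA-only site anywhere, with intervals that include the shares over protein-coding genes. The genes with iGPA-only sites included Gata2, Gsc, Isl1, Msx1, Pax3, Pax6, Runx1 and Six3. Runx1 and Six3 had 6 such sites each.

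Smaller lists and a set of housekeeping genes gave the remaining counts. Shared, iPou4f3-only and iGPA-only sites were found at 9, 6 and 6 of 25 pluripotency genes, at 5, 6 and 6 of 15 Sox genes and at 6, 4 and 4 of 11 other POU genes, against 23.3%, 28.2% and 16.8% of protein-coding genes. For pluripotency genes the shares were 36%, 24% and 24%, with intervals that include these. Ribosomal protein genes, added after the promoter shares were seen, had iPou4f3-only sites at 35 of 79 genes (44.3%, against 28.2% of protein-coding genes), each with such a site at the promoter (18.3% of protein-coding genes), shared sites at 29 (36.7% against 23.3%) and iGPA-only sites at 7 (8.86% against 16.8%).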

How the data were processed

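Pou4f3, Atoh1 and Gfi1 ChIP-seq was taken from 9 deposited peak lists. Per the study's methods and the submitters' processing notes, reads were trimmed (Trimmomatic), aligned to mm9 with Bowtie2, filtered for duplicates (Picard), mapping quality of at least 40 (SAMtools) and blacklisted regions, and peaks were called with MACS2 at a p of 0.05 on merged replicates against merged inputs. The deposited values are a fold enrichment (ratio) and a −log10 p and q value for each peak, made by the authors. The filter that took called peaks to kept summit lists was not given in the sources used here. Read depth was not used, since the lists hold no totals. The iGPA Pou4f3 list is named after its 3 factors and was matched to iGPA by that name.

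From these, 300 bp summit windows were joined where they shared at least 1 bp. Patterns were counted in 250 bp around the summit and in flanks 1000 bp away, in NCBIM37. Genes were assigned by nearest start. Shares carry exact Clopper-Pearson and differences Newcombe 95% intervals, which cover counting error only, since sites are not replicates and neighbouring sites are not independent. Counts were checked on simulated data. No test across sites was run. Genes were named as the 10 with the most sites per class and sites as the 3 with the highest fold in each of several categories, outside chromosomes 18 and Y and tandem repeats, and the sites printed were picked from these after their values were seen. Some genes that the rule names are not reported here. The members and lists were chosen with earlier results of these data known. The ribosomal protein list, the word ATGAATAAT, the fold bands and the promoter-only and distal alternatives were added after values were seen. List entries without a match (Map2, Sox1, Tfcp2l1 and Pou5f2) were left out. Python 3.11.15, numpy 2.4.6, pandas 2.3.3, scipy 1.17.1 and matplotlib 3.10.9 were used.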

Additional observations from a re-analysis of the deposited data

Results flagged for a closer look

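The difference in Atoh1 peak share between iGPA-only and iPou4f3-only sites changed sign between lines. It was −4.31 percentage points in the iAtoh1 list and −6.79 points in the iG+A list, from lines without Pou4f3, and 3.25 points in the iP+A list and 8.61 points in the iGPA list, from lines with it. The change of sign between the lists was not tested, because each list is 1 merged set of peaks.

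Some sites of a class that was not shared held a peak of the other line that had been called but was absent from the kept list. A left-out iGPA Pou4f3 peak was present at 3.89% of iPou4f3-only sites (444 sites), and a left-out iPou4f3 peak at 2.77% of iGPA-only sites (215 sites).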

How the results depend on the processing

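No paired analysis was possible because the authors merged the replicate libraries before calling peaks, and for the same reason no replicate could be left out. The shared percentage of iPou4f3 and of iGPA sites was 45.4% and 54.3% with 100 bp windows, 52.9% and 61.3% with 1000 bp windows, and 55.4% for each with lists of equal length. For iPou4f3 sites it was 47.3% with all called peaks, 64.8% at a −log10 p of at least 10 and at most 49.7% with a chromosome left out. Of 96 alternatives for the differences between iGPA-only and iPou4f3-only sites, 84 kept their direction and side of 0. The other 12 concerned Pou4f3 peaks of the remaining lines. The iP+A Pou4f3 difference rose to 4.20 points with 100 bp windows, 1.1997 on chromosomes 1 to 19, at most 1.33 with a chromosome left out and 1.54 away from promoters. It was −2.33 points with 1000 bp windows, −0.58 with all called peaks, −1.79 at a −log10 p of at least 10, −0.99 with equal lengths, −6.76 at a fold of 3 to 4 and −17.6 at 4 to 6. The iG+P difference was 0.0654 points at a fold of 3 to 4 and −4.49 at 4 to 6. The fold-band and distal alternatives for these lists were chosen after seeing the data. The cause was not tested.

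In bulk ChIP, binding in a fraction of the cells and weaker binding per cell cannot be told apart, and sites below the calling limit of a list are not distinguished from unbound ones.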
